A study of Mus musculus with 36 samples.

Results

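The genes described here carry fatty acids from activation to acetyl-CoA and on to ketone bodies. Members were the rows of the deposited gene table with 1 of 34 gene symbols, and each symbol matched 1 row, so that 34 of 56748 genes were followed. They were read by step. There were 4 genes for the regulator PPARα and genes known to respond to it (*Ppara*, *Fgf21*, *Pdk4*, *Vnn1*), 4 for activation and carnitine-dependent entry (*Acsl1*, *Cpt1a*, *Slc25a20*, *Cpt2*) and 11 for mitochondrial β-oxidation (*Acadvl*, *Acadl*, *Acadm*, *Acads*, *Hadha*, *Hadhb*, *Hadh*, *Acaa2*, *Eci1*, *Eci2*, *Decr1*). A further 3 genes served electron transfer (*Etfa*, *Etfb*, *Etfdh*), 7 the peroxisome (*Abcd2*, *Abcd3*, *Pex11a*, *Ehhadh*, *Hsd17b4*, *Acaa1a*, *Acaa1b*), 4 were acyl-CoA thioesterases (*Acot1* to *Acot4*) and 1 was a ketone body enzyme (*Bdh1*). With *Bdh1* alone, the ketogenic step is thinly covered.

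RNA of visceral white adipose tissue (visWAT) and liver came from the same 18 male C57BL/6J mice, giving 36 libraries in 8 groups. *Mlkl*Adi-KO mice carried a floxed *Mlkl* allele and Adipo-Cre, which is active in mature adipocytes, and WT mice were floxed littermates without Cre. In each tissue there were 4 WT and 4 *Mlkl*Adi-KO mice on normal chow diet (NCD), and 5 WT and 5 *Mlkl*Adi-KO mice on high-fat diet (HFD), fed for 16 weeks from an age of 16 weeks. Cre acts in adipocytes, so *Mlkl* of liver cells and of the other cells in visWAT is untouched by design.

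In mitochondria, an acyl-CoA made by ACSL1 passes the membrane through CPT1A, the carnitine carrier SLC25A20 and CPT2, and is then shortened in repeated rounds of dehydrogenation, hydration, dehydrogenation and thiolysis, with ETF and its dehydrogenase taking up the electrons. Peroxisomes shorten very long and branched chains with enzymes of their own, and the liver turns surplus acetyl-CoA into ketone bodies. PPARα, a nuclear receptor activated by fatty acids, switches on many of these genes in fasting liver, while white fat, which stores and releases fatty acids, expresses most of them at lower levels.

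PPARα binds DNA with RXR at direct repeats of the hexamer AGGTCA with 1 base between them (AGGTCANAGGTCA). A search of both strands, allowing 2 mismatches in the hexamers, found such a repeat in the promoters of 3 of the 29 members that have an entry in the RefSeq promoter table (10.3%). In the same table, 1190 of 27025 gene symbols (4.4%) have 1. The promoters of *Acot4* and *Etfa* up to the gene start and 30 bases of *Slc25a20* up to the end of its match are shown, 5′ to 3′ on the gene's strand, because these genes return in the comparisons below. Capitals mark the match. The sequences are RefSeq's of GRCm38.p6, and their positions come from an exact match to GRCm39, the build of the deposited table.
Acot4, chr12:84084903-84085152, plus strand: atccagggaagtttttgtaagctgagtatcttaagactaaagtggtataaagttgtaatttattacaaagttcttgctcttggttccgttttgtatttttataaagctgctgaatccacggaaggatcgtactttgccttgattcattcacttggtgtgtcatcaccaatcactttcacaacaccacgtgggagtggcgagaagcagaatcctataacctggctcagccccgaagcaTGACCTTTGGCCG
Etfa, chr9:55419528-55419777, minus strand: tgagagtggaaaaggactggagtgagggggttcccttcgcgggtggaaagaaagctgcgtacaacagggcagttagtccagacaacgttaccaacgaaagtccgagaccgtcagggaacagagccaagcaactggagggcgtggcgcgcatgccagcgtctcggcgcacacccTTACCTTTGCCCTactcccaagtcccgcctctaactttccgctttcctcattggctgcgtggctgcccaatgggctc
Slc25a20, chr9:108539324-108539353, plus strand: cccgcccacctgaatgtAGGTGAAAGGTCG
The *Acot4* match ends 1 base before the start of the gene and lies on the opposite strand, with the differences A1C and T4C from the repeat, counted from 1 at the repeat's 5′ end. In *Etfa* it lies 77 to 65 bases before the start, on the opposite strand (T4G, C12A). In *Slc25a20* it lies on the gene's own strand (C5G, A13G) and covers bases 7 to 19 after RefSeq's start, which are bases 55 to 67 of the gene as the deposited table places it. A match of letters does not show a bound site. *Abcd2*, *Vnn1*, *Acaa2*, *Decr1* and *Hsd17b4* had no entry.

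Each library held 20875463 to 30322171 reads on genes. In visWAT, *Mlkl* stood at 3.91 to 6.28 FPKM (reads on a gene scaled to gene length and library size) in WT mice other than mouse 182 and at 1.96 to 2.72 FPKM in *Mlkl*Adi-KO mice. The library labelled WT NCD of mouse 182 had 2.29 FPKM, within the *Mlkl*Adi-KO range. Mice 182 and 183, both WT NCD, stood apart in visWAT. Mouse 182 was above the other WT NCD mice in 29 of the 34 members (median ratio to their mean 2.16), and its library held 72.5 FPKM of *Cidea* against 4.33 to 14.9 in the others, and 6.23 FPKM of *Ucp1* against at most 0.12. Mouse 183 was below the others in 27 members (median ratio 0.543), and 18.5% of its reads lay on 6 seminal vesicle genes. In liver, mouse 182 was above the other WT NCD mice in 13 members and below them in 18, and its summed macrophage and stellate or fibroblast markers were 173 and 123 FPKM beside group medians of 74.0 and 35.0 FPKM. The part of these in the results was not tested. Counts that rest on these libraries are therefore also given without them. In bulk tissue, fewer cells of a type and less RNA per cell cannot be told apart.

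The order of the members differed by tissue. In WT NCD liver the peroxisomal thiolase *Acaa1b* was the member with the highest level, at 2138 ± 222 FPKM (SD, n = 4), rank 29 among all genes. It was followed by the mitochondrial thiolase *Acaa2* at 831 FPKM and the peroxisomal bifunctional enzyme *Ehhadh* at 622 ± 276 FPKM. In WT NCD visWAT the leading members were *Acadl*, the long-chain acyl-CoA dehydrogenase, at 123 ± 72.5 FPKM, *Acsl1* at 113 ± 49.8 FPKM and *Etfa* at 112 FPKM. The ranges of these 3 overlapped, and mouse 182 alone reached 229 FPKM for *Acadl*. At the low end of visWAT, *Bdh1* (0.0392 to 1.84 FPKM over all 18 mice) and *Acot3* (0 to 0.335 FPKM) fell below the level filter of a mean of 0.5 FPKM and were not tested within visWAT. The highest *Bdh1* values were those of mouse 183 and, at 1.25 FPKM, of *Mlkl*Adi-KO HFD mouse 156, whose visWAT library also held 460 FPKM of the hepatocyte gene *Alb* against at most 53.2 FPKM in the other 17.

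**Figure D1:**
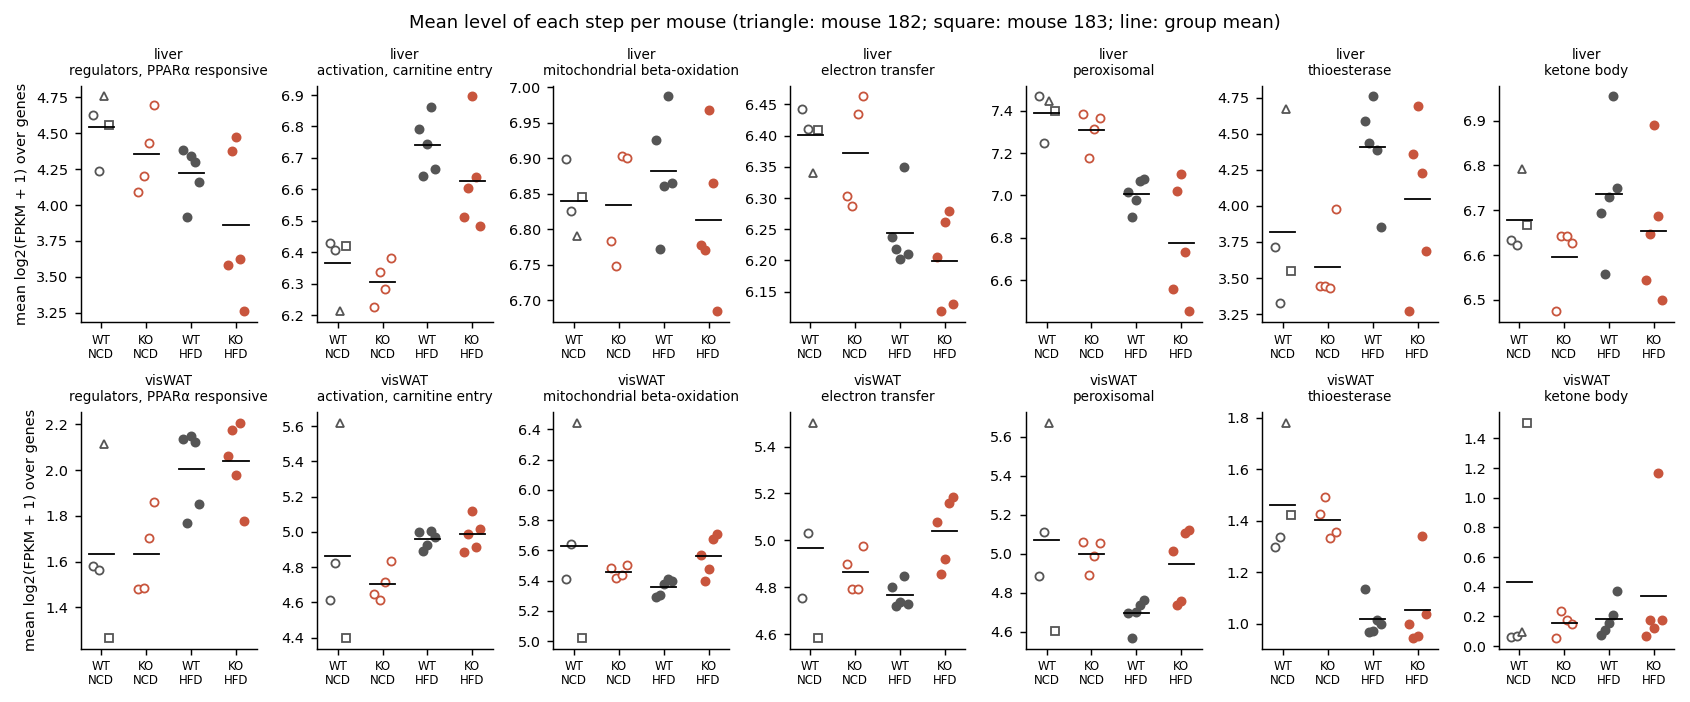
Mean level of each step per mouse, as log2(FPKM + 1) averaged over the genes of the step, with liver above and visWAT below. Grey is WT and red *Mlkl*Adi-KO, open symbols are NCD and filled symbols HFD, the triangle is mouse 182 and the square mouse 183, and lines are group means. In liver the peroxisomal step of WT mice lay at 7.25 to 7.47 on NCD and at 6.90 to 7.08 on HFD, without overlap, while the mitochondrial step overlapped. In visWAT mice 182 and 183 span the WT NCD group in most steps.

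The first comparison asked what HFD did to these genes in the liver of WT mice. *Acsl1* and *Cpt1a*, of activation and entry, rose, 3 of 7 peroxisomal genes fell and 1 rose, and 10 of 11 genes of the mitochondrial spiral and *Bdh1* did not pass the test. Of the 34 members, 12 passed an adjusted p of 0.05 (limma on log2(FPKM + 1), Benjamini-Hochberg over 13330 genes), 7 higher and 5 lower on HFD, beside 25.3% of all genes tested (13.2% higher, 12.1% lower). The median log2 difference of the members was 0.03, and that of all genes 0.00. Without mouse 182, 15 members passed, 7 higher and 8 lower, and the share of all genes in that fit is not given here. By step, activation and entry had 2 of 4 higher, the mitochondrial spiral 1 of 11 higher, electron transfer 1 of 3 lower, the peroxisomal group 1 of 7 higher and 3 lower, the thioesterases 2 of 4 higher, and the regulators 1 of 4 higher and 1 lower.

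*Cpt1a*, the outer-membrane carnitine transferase that limits entry, stood at 82.9, 75.6, 72.8 and 75.2 FPKM in WT NCD livers (mice 165, 180, 182 and 183, the order kept below). In WT HFD livers it stood at 134, 119.6, 136, 157 and 132 FPKM (mice 154, 155, 161, 162 and 164). The groups did not overlap, and the log2 difference was 0.81 ± 0.08 (SE, limma adjusted p = 0.000164). *Acsl1*, which joins fatty acids to CoA, went from 161, 156, 112 and 158 FPKM to 247, 196, 215, 227 and 178 FPKM, a log2 difference of 0.54 ± 0.13 (limma adjusted p = 0.0155). Mouse 182 was the lowest of all for *Acsl1*, and the groups did not overlap. The carrier *Slc25a20* and *Cpt2*, the inner-membrane partner, did not pass.

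In the mitochondrial spiral, *Hadh*, the short-chain hydroxyacyl-CoA dehydrogenase, was the member that rose. It stood at 85.2, 81.8, 92.8 and 84.0 FPKM on NCD and at 121, 112, 119, 129 and 121 FPKM on HFD (log2 difference 0.48 ± 0.06, limma adjusted p = 0.000445). Every HFD liver lay above every NCD liver. The other 10 genes of the spiral did not pass, and the step's median log2 difference was 0.04. *Etfa*, a subunit of the flavoprotein that takes electrons from the acyl-CoA dehydrogenases, fell by 0.16 ± 0.05 on the log2 scale (limma adjusted p = 0.0324), a call that held in 2 of 9 fits that left out 1 mouse.

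The peroxisomal group did not move as 1 block. *Ehhadh* stood at 597, 405, 1019 and 468 FPKM on NCD and at 144, 159, 138, 133 and 160.1 FPKM on HFD. Its groups lay far apart, with the lowest NCD liver at 405 FPKM and the highest HFD liver at 160.1 FPKM, and it fell by 1.98 ± 0.23 on the log2 scale (limma adjusted p = 0.000424). *Abcd3*, a peroxisomal membrane transporter of fatty acids, went from 210.2, 186, 158 and 189 FPKM to 126, 127, 125, 128 and 148 FPKM and fell by 0.50 ± 0.09 (log2, limma adjusted p = 0.00344). *Acaa1b* fell by 0.48 ± 0.11 (log2, limma adjusted p = 0.0126), and its mean remained at 1531 FPKM on HFD. Against these, *Pex11a*, which promotes the division of peroxisomes, rose by 0.72 ± 0.16 on the log2 scale (limma adjusted p = 0.00914), from a mean of 64.8 to 106 FPKM. *Acaa1a*, *Hsd17b4* and *Abcd2* did not pass.

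Among genes known to respond to PPARα, *Pdk4*, the kinase that restrains pyruvate dehydrogenase in fasting, fell while *Ppara* itself rose. *Pdk4* stood at 5.54, 4.56, 11.6 and 5.91 FPKM on NCD and at 2.45, 1.66, 1.61, 1.63 and 2.04 FPKM on HFD (log2 difference -1.39 ± 0.21, limma adjusted p = 0.00174). Its groups did not overlap. *Ppara* stood at 46.9, 34.03, 25.2 and 46.6 FPKM on NCD and at 58.5, 52.0, 71.2, 68.8 and 51.8 FPKM on HFD (log2 difference 0.68 ± 0.19, limma adjusted p = 0.0264). The groups did not overlap here either, but the call held in 5 of 9 fits without 1 mouse. *Fgf21*, a hormone released by fasting liver, stood at 12.9, 9.43, 71.9 and 10.8 FPKM on NCD and at 9.46, 6.28, 10.1, 8.11 and 9.19 FPKM on HFD. Mouse 182 was far above the rest, and the difference of -0.98 ± 0.51 did not pass (log2, limma adjusted p = 0.197).

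The 4 thioesterases split acyl-CoA into fatty acid and CoA and lie side by side on chromosome 12 between 84034635 and 84107176. Of these, *Acot3* and *Acot4* rose, and *Acot1* and *Acot2* did not pass. *Acot4* rose from 12.5, 11.1, 21.2 and 12.3 FPKM to 33.3, 34.5, 43.3, 32.0 and 21.8 FPKM (log2 difference 1.16 ± 0.22, limma adjusted p = 0.00453). The lowest HFD liver was just above mouse 182. *Acot3* rose by 1.83 ± 0.46 (log2, limma adjusted p = 0.0185), from a mean of 4.93 to 19.3 FPKM. *Acot1* stood at 40.6, 31.6, 60.9 and 34.6 FPKM on NCD and at 36.4, 26.8, 28.2, 28.5 and 19.5 FPKM on HFD, overlapping, with a log2 difference of -0.55 (limma adjusted p = 0.0851). These genes share sequence: 18.9% of the 150-base stretches of *Acot3* transcripts, 11.3% of *Acot2* and 9.02% of *Acot1* also occur in transcripts of another gene, so reads may have been split between them and their values are uncertain. The same holds for *Etfb* (10.5%, shared with *Etfbl*) and, to a smaller extent, for *Acot4* (4.08%), *Hadhb* (3.68%), *Acaa1b* (3.22%) and *Acaa1a* (1.88%).

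*Bdh1*, which interconverts acetoacetate and β-hydroxybutyrate, stood at 98.3, 97.6, 109.9 and 101 FPKM on NCD and at 102, 93.1, 105, 123 and 107 FPKM on HFD. The log2 difference was 0.06 ± 0.08 with a 95% interval of -0.12 to 0.23 (limma adjusted p = 0.642). Of 78 other genes of the pathway, listed whatever their result, 73 were tested, of which 20 rose and 11 fell. Among those with the lowest adjusted p were *Cyp4a14*, an ω-hydroxylase long used as a PPARα target (from 1001 ± 258 to 196 ± 42.6 FPKM), *Acsl5*, *Crot*, *Ppargc1a* and *Cidec*. *Acsl5* fell from 172 to 77.0 FPKM, *Crot*, a peroxisomal carnitine transferase, from 161 to 86.4 FPKM and the coactivator *Ppargc1a* from 4.62 to 1.66 FPKM. The lipid droplet gene *Cidec* rose from 12.98 to 78.1 FPKM.

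Several other gene groups moved with the liver's diet difference. In a list of 12 clock genes, 6 of 11 tested rose and 3 fell in each genotype, and *Per2* in WT livers was at 2.18 to 6.32 FPKM on NCD and at 17.1 to 18.8 FPKM on HFD. Of 7 genes known to be higher in fasting liver, 4 fell and none rose in each genotype, and of 8 known to be higher in fed liver, 4 rose and 3 fell in WT mice. The summed level of 10 mature adipocyte markers, *Cidec* among them, was 19.95 to 39.4 FPKM in WT NCD livers and 109 to 177 FPKM in WT HFD livers, with *Adipoq* at 0 to 2.70 FPKM, beside a summed hepatocyte level of 43746 to 65977 FPKM over both groups. The part of sampling time, feeding state or cell make-up in these results was not tested.

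The livers of *Mlkl*Adi-KO mice answered the same question separately, with no library in common. Here 10 of 34 members passed, 6 higher and 4 lower, beside 22.2% of 13149 genes tested (11.9% higher, 10.3% lower). All 10 had also passed in WT livers, in the same direction, and 31 of 34 members had the same sign in both genotypes. *Ehhadh* stood at 610.5, 491, 487 and 417 FPKM on NCD (mice 166, 179, 197 and 199) and at 112, 136, 147, 117 and 122 FPKM on HFD (mice 151, 152, 153, 156 and 157), falling by 1.97 ± 0.12 (log2, limma adjusted p = 1.92e-05). *Cpt1a* went from 71.1, 83.9, 78.3 and 71.0 FPKM to 97.2, 139, 156, 129.99 and 106 FPKM, a log2 difference of 0.70 (limma adjusted p = 0.00590). Neither gene's groups overlapped. *Pdk4* fell by 1.26 on the log2 scale (limma adjusted p = 0.00723), from 3.94, 6.42, 3.06 and 4.36 FPKM to 0.54, 2.27, 2.09, 0.932 and 0.784 FPKM. *Ppara* rose from 21.9, 31.3, 38.9 and 35.3 FPKM to 41.4, 73.5, 68.7, 68.2 and 48.6 FPKM (log2 difference 0.89, limma adjusted p = 0.0132). Among the HFD livers, mouse 151 had the lowest values of both genes.

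*Abcd3* and *Acaa1b* fell and *Acsl1*, *Hadh*, *Acot3* and *Acot4* rose in *Mlkl*Adi-KO livers, while *Etfa* and *Pex11a* did not pass. The calls of *Hadh* and *Acot3* each held in 2 of 9 fits without 1 mouse. *Abcd3* went from 210.2, 212, 179 and 178 FPKM to 119, 132, 143, 121 and 118 FPKM (log2 difference -0.62, limma adjusted p = 0.00120). *Acaa1b* spread widely on HFD, with 867, 1646, 1474, 956 and 865 FPKM, so that mice 152 and 153 lay within the WT HFD range of 1308 to 1748 FPKM and mice 151, 156 and 157 below it. *Acsl1* rose from 137, 141, 131 and 147 FPKM to 186, 174, 232, 197 and 176 FPKM (log2 difference 0.47, limma adjusted p = 0.00584). *Acot4* rose from 9.87, 10.5, 12.04 and 14.9 FPKM to 15.8, 33.8, 37.4, 31.1 and 22.8 FPKM (log2 difference 1.14, limma adjusted p = 0.00732). *Fgf21* (log2 difference -1.22, limma adjusted p = 0.150), *Acot1* (-0.61, 0.0580) and *Bdh1* (0.06, 0.677) did not pass. Of the other pathway genes, 19 rose and 14 fell.

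**Figure D2:**
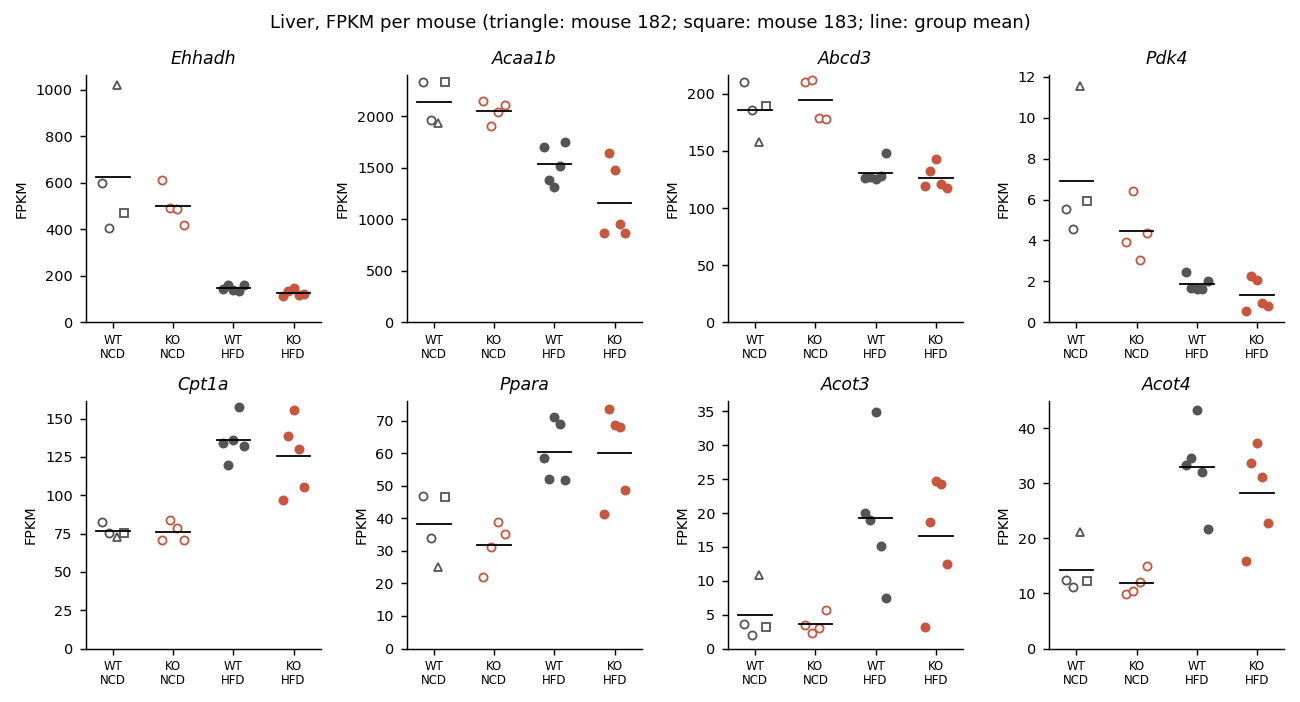
FPKM in the liver of each mouse for 8 members, with 1 panel a gene and an axis that starts at 0. Grey is WT and red *Mlkl*Adi-KO, open symbols are NCD and filled symbols HFD, the triangle is mouse 182, the square mouse 183 and lines are group means. *Ehhadh* lay at 405 FPKM or more in every NCD liver and at 160.1 FPKM or less in every HFD liver, in both genotypes, and *Cpt1a* lay at 83.9 FPKM or less on NCD and at 97.2 FPKM or more on HFD.

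In the visWAT of WT mice HFD raised *Cpt1a* and lowered several mitochondrial, peroxisomal and thioesterase genes. Of the 32 members tested, 10 passed, 3 higher and 7 lower, beside 37.8% of 14161 genes (21.9% higher, 15.8% lower). By step, 3 of 11 mitochondrial genes, 2 of 7 peroxisomal genes and 2 of 3 thioesterases fell, 2 of 4 regulators and 1 of 4 entry genes rose, and none of 3 electron transfer genes passed. The members' median log2 difference was -0.21 (all genes -0.01). On the TPM scale, on which the length-corrected values of every library have the same sum, it was 0.26 beside 0.42 for all genes. There 4 members passed, *Cpt1a*, *Fgf21* and *Vnn1* higher and *Acot4* lower. Mouse 183 had a summed FPKM of 564718, of which 255949 lay on seminal vesicle genes. The other visWAT libraries had 227793 to 309820. Scaling to TPM therefore lowers the other genes of mouse 183 the most, wherever WT NCD visWAT enters. On FPKM, 16 passed without mouse 182 (7 higher), 15 without mouse 183 (3 higher), and 21 without both (8 higher and 13 lower). The shares of all genes in these fits and on the TPM scale are not given here, so the change in count is not particular to the members.

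*Cpt1a* in visWAT stood at 8.48, 6.26, 8.47 and 8.02 FPKM on NCD and at 19.6, 18.6, 18.8, 18.2 and 18.4 FPKM on HFD. Mice 182 and 183 were within the group here, and the log2 difference was 1.17 ± 0.09 (limma adjusted p = 8.56e-06). *Fgf21* was near the lower limit of detection, at 0.177, 0.169, 0.66 and 0.103 FPKM (3 to 17 reads) on NCD and at 1.07, 0.671, 0.835, 0.756 and 0.604 FPKM (18 to 32 reads) on HFD. It rose by 0.50 on the log2(FPKM + 1) scale (limma adjusted p = 0.0169), with mouse 182 among the HFD values. *Vnn1*, a pantetheinase that releases cysteamine, stood at 2.43, 1.49, 0.733 and 1.16 FPKM on NCD and at 3.45, 2.28, 3.76, 3.54 and 2.77 FPKM on HFD, overlapping in 1 mouse of each group (log2 difference 0.79, limma adjusted p = 0.00975).

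The genes that fell included both organelles. *Eci1*, a mitochondrial enoyl-CoA isomerase, stood at 49.5, 60.1, 82.0 and 41.5 FPKM on NCD and at 32.5, 29.7, 30.8, 35.1 and 31.1 FPKM on HFD (log2 difference -0.81, limma adjusted p = 0.00533). *Hadh* fell by 0.62 (log2, limma adjusted p = 0.0251) and *Acadvl*, the very-long-chain dehydrogenase, by 0.64 (log2, limma adjusted p = 0.0498). The *Acadvl* call held in 2 of 9 fits without 1 mouse and that of *Hadh* in 6 of 9. *Pex11a* stood at 13.9, 20.9, 32.1 and 11.8 FPKM on NCD and at 7.80, 7.56, 7.55, 7.53 and 8.13 FPKM on HFD (log2 difference -1.15, limma adjusted p = 0.00459). *Abcd2*, a peroxisomal transporter of very-long-chain acyl-CoA, went from 83.4, 81.1, 66.9 and 48.1 FPKM to 44.2, 29.4, 36.7, 41.4 and 44.0 FPKM (log2 difference -0.80, limma adjusted p = 0.00751). The groups of *Eci1*, *Pex11a* and *Abcd2* did not overlap. Of the thioesterases, *Acot4* went from 1.60, 1.77, 2.60 and 1.14 FPKM to 0.494, 0.372, 0.323, 0.406 and 0.368 FPKM (log2 difference -0.97, limma adjusted p = 0.000399), and *Acot2* fell by 0.88 (log2, limma adjusted p = 0.0125).

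Mouse 182 was high in several members that did not pass in WT visWAT. *Ppara* stood at 0.535, 0.653, 1.85 and 0.391 FPKM on NCD and at 0.361, 0.245, 0.265, 0.418 and 0.291 FPKM on HFD (log2 difference -0.44, limma adjusted p = 0.0985). *Pdk4* stood at 11.99, 14.8, 42.0 and 9.10 FPKM on NCD and at 28.6, 18.6, 34.1, 30.8 and 20.7 FPKM on HFD (log2 difference 0.64, limma adjusted p = 0.222). *Ehhadh* stood at 14.8, 19.4, 38.4 and 14.6 FPKM on NCD and at 13.8, 9.27, 11.1, 11.2 and 13.5 FPKM on HFD (log2 difference -0.74, limma adjusted p = 0.0512). Mouse 182 was the highest of the NCD group for all 3. With mice 182 and 183 left out, *Ehhadh* and *Pdk4* were among the members that passed. *Acot1* overlapped, at 0.323, 0.254, 0.744 and 1.83 FPKM on NCD and 1.23, 0.840, 0.760, 0.713 and 0.537 FPKM on HFD (log2 difference 0.09, limma adjusted p = 0.783).

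Of the other pathway genes in WT visWAT, 64 were tested, of which 10 rose and 26 fell. In the mitochondrial part of that list, 16 of 21 fell and 1 rose. Those with the lowest adjusted p were *Ucp2* (from 20.1 ± 4.86 to 127 ± 23.1 FPKM), *Ivd* (from 51.7 to 16.0 FPKM), *Acsm3* (from 5.46 to 0.127 FPKM), *Hsd17b10*, *Acadsb* and *Pccb*. *Ivd*, *Acadsb* and *Pccb* are known for the breakdown of branched-chain amino acids. Cell type markers moved alongside. All 10 macrophage markers rose (summed level 245 to 350 FPKM on NCD, 2092 to 2978 FPKM on HFD), and of 10 mature adipocyte markers 7 fell and 1 rose (10062 to 21573 FPKM on NCD, 4689 to 6026 FPKM on HFD). Their part in the members' changes was not tested.

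In the visWAT of *Mlkl*Adi-KO mice 19 of 32 members passed, 13 higher and 6 lower, beside 43.7% of 14026 genes (23.3% higher, 20.3% lower). Here 6 of 11 mitochondrial genes rose and 1 fell, 2 of 7 peroxisomal genes rose and 2 fell, 2 of 4 entry genes and 1 of 3 electron transfer genes rose, and 2 of 3 thioesterases fell. The 7 members called in both genotypes had the same direction in each. The 12 called in *Mlkl*Adi-KO mice but not in WT mice had the same sign in WT mice in 8 cases, and the difference between genotypes is given with its own test below. With all 4 visWAT groups in 1 fit, which takes in mice 182 and 183, 9 members passed (5 higher). The share of all genes called in that fit is not given here. None of the mitochondrial genes passed there, with limma adjusted p from 0.105 (*Acaa2*) to 0.574 (*Hadhb*) for those called above. *Slc25a20* (0.247), *Etfb* (0.0584) and *Ppara* (0.0824) also lost their calls.

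*Cpt1a* again rose, from 8.22, 8.48, 9.32 and 9.78 FPKM to 13.9, 19.1, 19.5, 12.6 and 12.7 FPKM (log2 difference 0.71, limma adjusted p = 0.00402). *Acadl* rose from 91.1, 90.6, 91.9 and 102 FPKM to 117, 114, 128, 125 and 137 FPKM (log2 difference 0.40, limma adjusted p = 0.00322). For both genes every HFD value exceeded every NCD value. *Acaa1b* rose from 35.2, 32.2, 39.4 and 41.0 FPKM to 92.9, 61.6, 64.6, 99.6 and 73.0 FPKM (log2 difference 1.04, limma adjusted p = 0.00106). *Hsd17b4*, the second peroxisomal bifunctional enzyme, rose from 69.3, 63.3, 66.4 and 72.3 FPKM to 104, 88.9, 89.9, 101 and 112 FPKM (log2 difference 0.54, limma adjusted p = 0.00135). *Acaa1b* thus rose in the visWAT of these mice and fell in their livers.

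*Pdk4* rose from 11.3, 10.1, 9.58 and 12.1 FPKM to 19.0, 30.8, 24.8, 18.6 and 12.9 FPKM (log2 difference 0.87, limma adjusted p = 0.00956), and *Fgf21* from 0.160, 0.171, 0.464 and 0.290 FPKM to 0.896, 1.18, 0.845, 1.28 and 1.01 FPKM (log2 difference 0.69, limma adjusted p = 0.000955). *Pex11a* fell from 20.6, 16.1, 15.9 and 15.8 FPKM to 8.38, 8.96, 8.27, 11.8 and 11.8 FPKM (log2 difference -0.75, limma adjusted p = 0.00221). For each of these 3 genes the lowest value of one diet lay above the highest of the other. *Acot2* fell by 0.61, *Abcd2* and *Acot4* by 0.80 each, *Ppara* by 0.33 and *Acadvl* by 0.31 on the log2 scale. *Slc25a20*, *Acaa2*, *Hadha*, *Hadhb*, *Acadm*, *Decr1* and *Etfb* rose by 0.19 to 0.45 on the log2 scale. The calls of *Acadvl* and *Decr1* each held in 3 of 9 fits without 1 mouse, and that of *Etfb* in 4 of 9. *Ehhadh* (log2 difference -0.23, limma adjusted p = 0.289) and *Acot1* (-0.06, 0.841) did not pass. Of 66 other pathway genes, 12 rose and 19 fell. Of the macrophage markers 9 of 10 rose (317 to 535 FPKM on NCD, 864 to 2706 FPKM on HFD), and of the mature adipocyte markers 5 fell and 2 rose (16666 to 20818 FPKM on NCD, 5311 to 11984 FPKM on HFD).

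**Figure D3:**
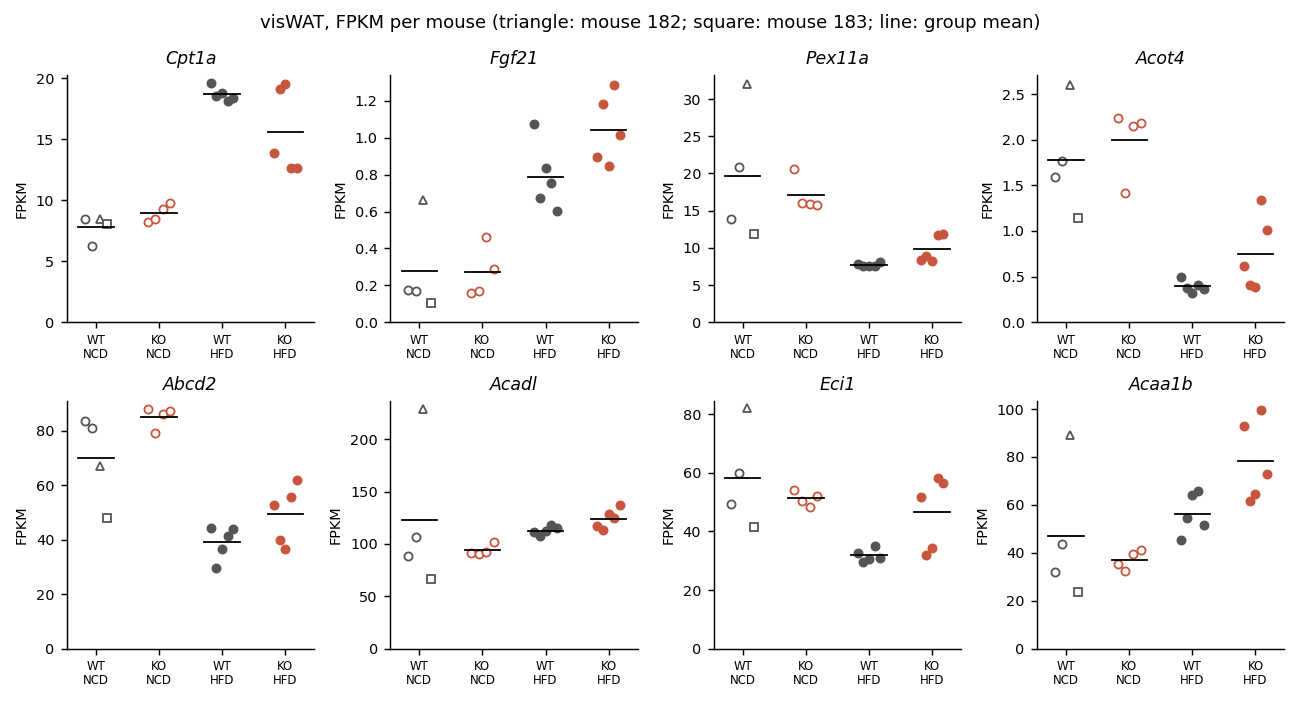
FPKM in the visWAT of each mouse for 8 members, with 1 panel a gene and an axis that starts at 0. Colours and symbols are those of the liver plot. *Cpt1a* lay at 9.78 FPKM or less in every NCD mouse and at 12.6 FPKM or more in every HFD mouse, and *Eci1* in the *Mlkl*Adi-KO HFD group split into 3 mice at 51.6 to 58.3 FPKM and 2 at 32.0 and 34.4 FPKM.

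**Figure D4:**
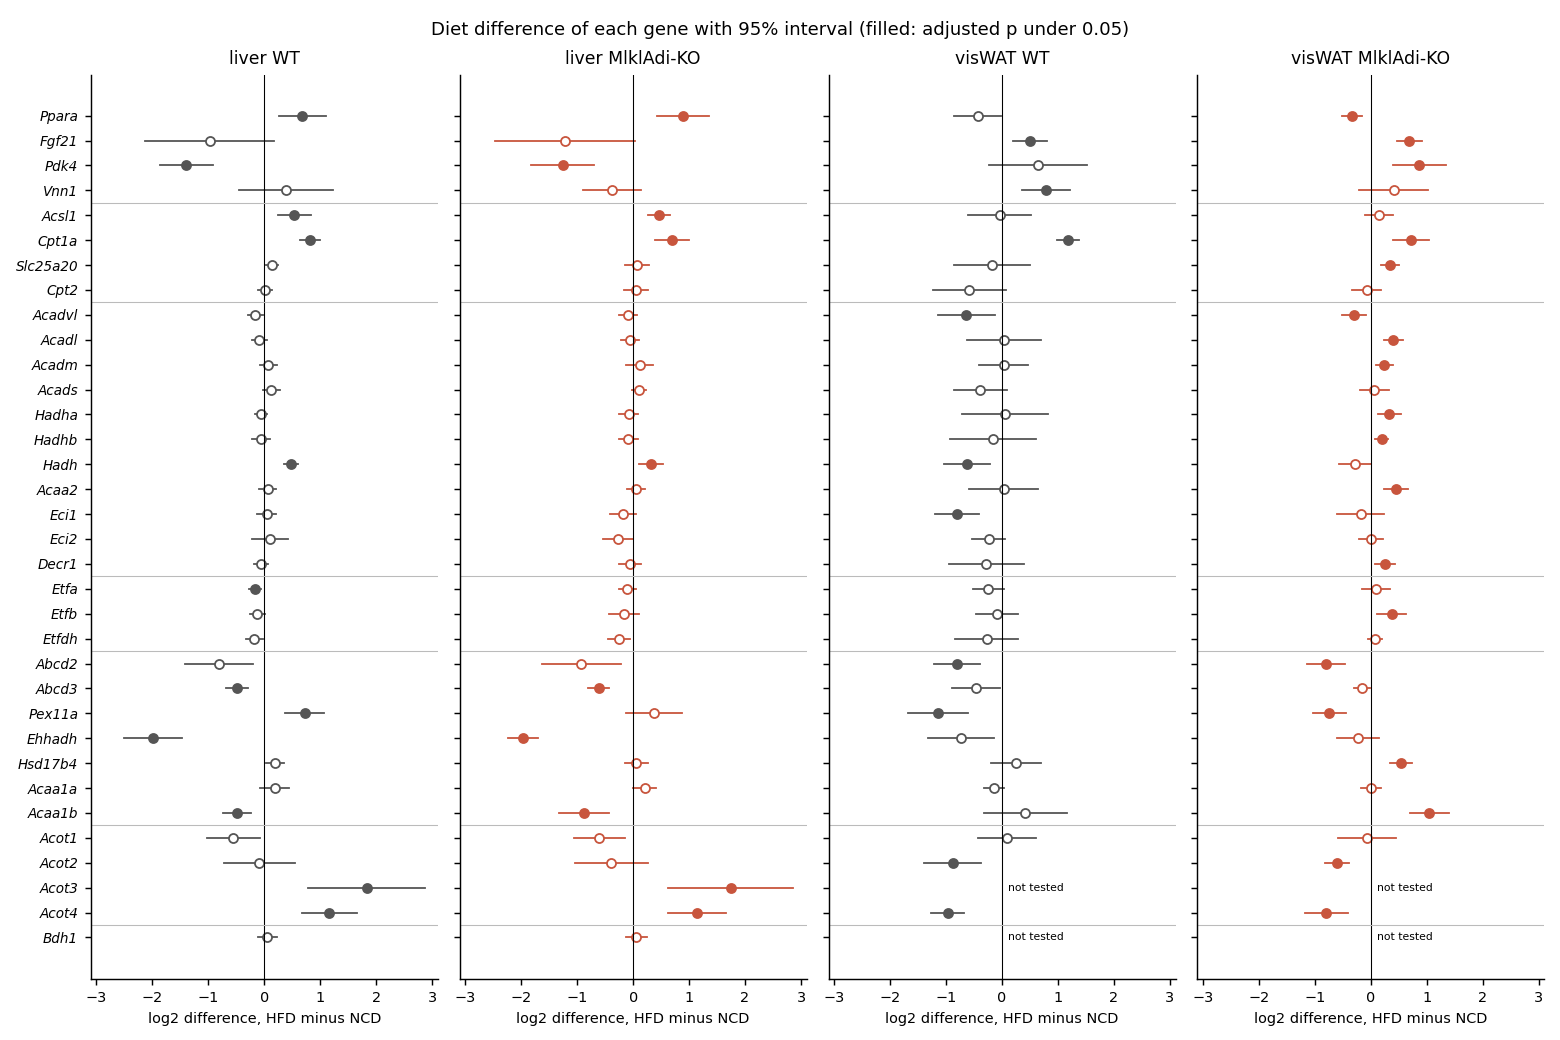
Log2 difference (HFD minus NCD) of every member with its 95% interval, in 4 panels for liver and visWAT of WT and *Mlkl*Adi-KO mice, with lines between the steps. Filled points passed an adjusted p of 0.05. *Cpt1a* was called higher in all 4 panels, *Ehhadh* lower in both liver panels (-1.98 and -1.97), and *Acot4* higher in liver (1.16 and 1.14) and lower in visWAT (-0.97 and -0.80).

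The levels of the 2 tissues were compared in WT NCD mice. Of 34 members, 26 were lower and 2 higher in visWAT, beside 34% and 31.5% of 14544 genes tested, 65.5% in either direction. The largest gaps were those of *Bdh1*, *Acaa1b*, *Ehhadh* and *Acot1*, with log2 differences of -6.25 ± 0.31, -5.65, -4.79 and -4.62 on the log2(FPKM + 1) scale. *Ppara* (log2 difference -4.42), *Vnn1* (-4.54), *Fgf21* (-3.90) and *Cpt1a* (-3.15) were also far below their liver levels. *Abcd2* was higher in visWAT, at 83.4, 81.1, 66.9 and 48.1 FPKM against 7.73 to 22.5 FPKM in liver (log2 difference 2.53 ± 0.32, limma adjusted p = 0.000172). *Pdk4* was higher as well (log2 difference 1.20, limma adjusted p = 0.0427), a call that held in 1 of 4 fits without 1 mouse.

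By step, all 3 electron transfer genes, 6 of 7 peroxisomal genes, 7 of 11 mitochondrial genes, 3 of 4 entry genes, 3 of 4 thioesterases, 3 of 4 regulators and *Bdh1* were lower in visWAT. With the mouse as a block, *Cpt2* lost its call (limma adjusted p = 0.0548), which leaves 2 of 4 entry genes. *Acadl*, *Hadhb*, *Hadh*, *Decr1*, *Acsl1* and *Acot2* did not pass. The median log2 difference was -0.90 for the mitochondrial and -1.74 for the peroxisomal step, against -0.03 over all genes. The FPKM of the tissues were scaled by different library sizes. On the TPM scale the median of all genes was 0.52, and 18 members passed, 2 higher and 16 lower. On FPKM, 33 members passed without mouse 182, 25 without mouse 183 and 33 without both. For these fits and the TPM scale the share of all genes called is not given here. Of 75 other pathway genes tested, 14 were higher and 48 lower in visWAT. *Oxct1*, the enzyme that lets cells other than hepatocytes use ketone bodies, was at 50.8 ± 3.38 FPKM in visWAT and at 1.62 ± 1.05 FPKM in liver.

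Whether HFD acted differently in the tissues was tested as the difference between the diet effects of WT visWAT and WT liver. It passed for 10 of 34 members, 4 higher and 6 lower, beside 40% of 14746 genes (21.8% higher, 18.2% lower). *Acot4* (log2 -2.14 ± 0.27, limma adjusted p = 8.78e-06), *Pex11a* (-1.87 ± 0.30, 0.000123) and *Hadh* (-1.11 ± 0.20, 0.000364) rose in liver and fell in visWAT. *Acot3*, *Ppara* and *Eci1* also had a lower diet effect in visWAT, by 1.84, 1.12 and 0.85 on the log2 scale. *Acot3* lay below the level filter within visWAT, so its difference rests on its rise in liver (log2 1.83). *Pdk4* (2.03 ± 0.47, limma adjusted p = 0.00251), *Fgf21* (1.48 ± 0.56, 0.0453), *Ehhadh* (1.25 ± 0.37, 0.0131) and *Cpt1a* (0.36 ± 0.12, 0.0253) had a higher diet effect in visWAT. The call of *Fgf21* held in 3 of 9 fits without 1 mouse and that of *Cpt1a* in 4 of 9. *Cpt1a* rose in both tissues. Without mouse 182, 16 members passed, without mouse 183, 17, and without both 16, with the share of all genes in these fits not given here. On the TPM scale 6 of the 10 that passed were higher and 4 lower, with a median of 0.39 over all genes.

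The deletion of *Mlkl* in adipocytes was compared with WT on HFD in each tissue. In visWAT, none of 31 members tested passed in limma (adjusted p 0.221 to 0.814), beside 0.0215% of 13963 genes. At an unadjusted p of 0.05, 15 members passed in limma beside 21.5% of all genes and 15 in edgeR beside 21.4%. In DESeq2 on recovered reads 2 passed an adjusted p of 0.05, *Slc25a20* (log2 difference 0.19, adjusted p = 0.00848) and *Decr1* (0.30, 0.0312). The DESeq2 share over all genes is not given here. *Slc25a20* had a log2 difference of 0.07 on the TPM scale (limma unadjusted p = 0.254). With all 4 visWAT groups in 1 fit, the limma unadjusted p was 0.461 for *Slc25a20* and 0.216 for *Decr1*. Values leaned to *Mlkl*Adi-KO in 27 of 31 members, with a median log2 difference of 0.19 (all genes 0.00). On the TPM scale the lean was smaller, 22 of 31 members with a median of 0.09 beside -0.10 for all genes. By step, 10 of 11 mitochondrial, 3 of 3 electron transfer and 7 of 7 peroxisomal genes had positive differences on FPKM. On the TPM scale *Hadha* (-0.20), *Hadhb* (-0.04), *Etfdh* (-0.001) and *Abcd3* (-0.03) were negative. The share of all genes with a positive difference is not given here.

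The *Mlkl*Adi-KO values lay above every WT value in 4 of these members and below it in none, beside 1.42% and 1.59% of all genes tested (3.01% in either direction). *Slc25a20* stood at 11.6, 11.7, 11.6, 11.6 and 10.99 FPKM in WT HFD mice and at 13.4, 12.9, 13.4, 12.8 and 12.7 FPKM in *Mlkl*Adi-KO HFD mice (log2 difference 0.16 ± 0.04). *Decr1*, the reductase for unsaturated chains, stood at 35.9, 35.7, 35.9, 37.1 and 39.0 FPKM against 45.1, 39.9, 40.9, 47.3 and 50.9 FPKM (0.28 ± 0.07). Both groups were tight and the gap was small. *Etfa* stood at 91.7, 92.5, 91.0, 96.0 and 94.1 FPKM against 132, 98.5, 101, 135 and 129.5 FPKM (0.34 ± 0.10). *Pex11a* stood at 7.80, 7.56, 7.55, 7.53 and 8.13 FPKM against 8.38, 8.96, 8.27, 11.8 and 11.8 FPKM (0.30 ± 0.10). Each of the 4 had a two-sided exact permutation p of 0.00794, the smallest that 5 against 5 mice allow, and a limma adjusted p of 0.221.

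The *Mlkl*Adi-KO HFD mice were not alike. *Eci1*, named after its values were seen, stood at 51.6, 32.0, 34.4, 58.3 and 56.6 FPKM in mice 151, 152, 153, 156 and 157, against 29.7 to 35.1 FPKM in WT HFD mice. Mice 156, 157 and 151 exceeded every WT HFD mouse in 27, 25 and 19 of the 34 members, and mice 153 and 152 in 15 and 5. The same count over all genes is not given here, so these counts do not set the members apart. The summed FPKM of all genes was also highest in mice 156, 157 and 151, at 262520, 265779 and 258213. It was 227793 to 241374 in the other HFD visWAT libraries. The same 3 mice had the highest *Adipoq*, an adipocyte hormone, at 1994, 1947 and 1828 FPKM against 743 to 989 in WT, while mice 152 and 153 had 1018 and 891 FPKM. The macrophage marker *Cd68* was at 96.8, 78.6 and 223 FPKM in mice 156, 157 and 151 and at 322 and 370 FPKM in mice 152 and 153, against 244 to 427 FPKM in WT. Over the lists, all 10 macrophage markers had negative and 9 of 10 mature adipocyte markers positive genotype differences. Their part in the members' lean was not tested.

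Some members lay lower in those mice. *Cpt1a*, at 18.2 to 19.6 FPKM in WT HFD mice, stood at 13.9, 12.6 and 12.7 FPKM in mice 151, 156 and 157 and at 19.1 and 19.5 FPKM in mice 152 and 153 (log2 difference -0.28, limma adjusted p = 0.232). *Pdk4* (log2 difference -0.33), *Acot1* (-0.30), *Ehhadh* (0.23) and *Fgf21* (0.19) did not pass either. *Ppara* and *Bdh1*, with *Acot3*, were below the level filter, *Ppara* at 0.245 to 0.418 FPKM in WT HFD and 0.286 to 0.504 FPKM in *Mlkl*Adi-KO HFD mice.

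**Figure D5:**
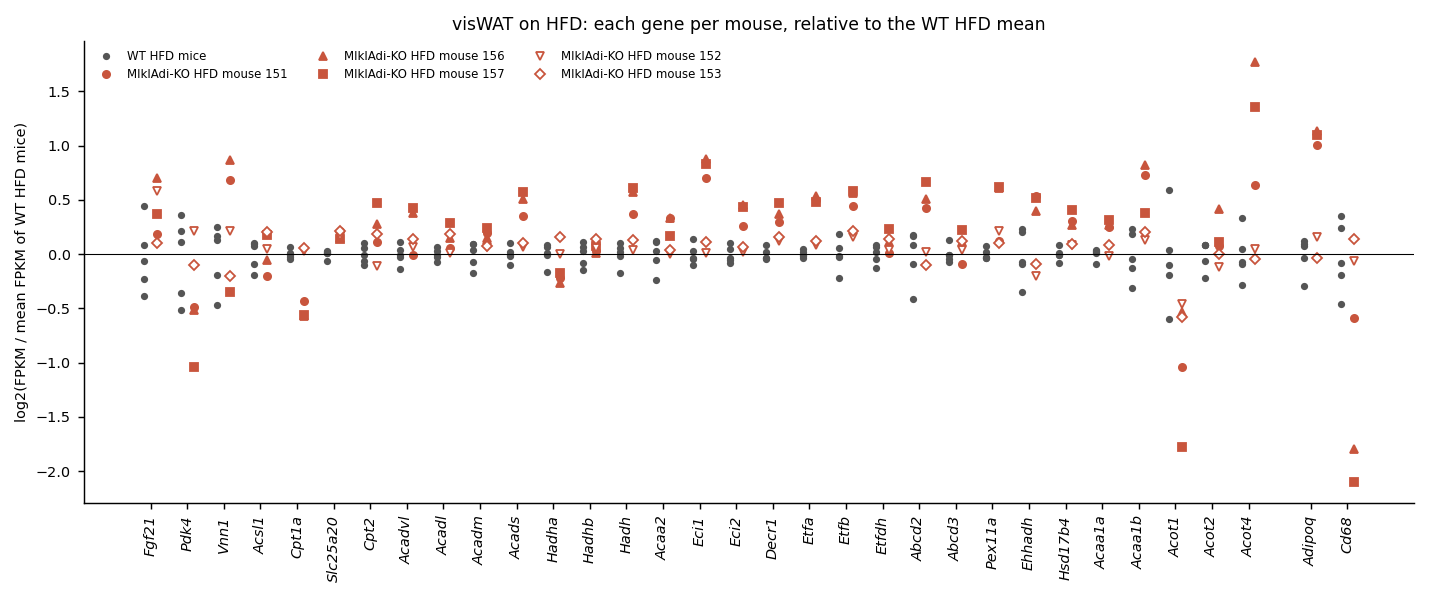
visWAT on HFD, each tested member per mouse as log2 of FPKM over the mean of the WT HFD mice, with *Adipoq* and *Cd68* at the right. Grey points are WT HFD mice, filled red symbols *Mlkl*Adi-KO mice 151, 156 and 157, and open red symbols mice 152 and 153. Of *Eci1*, mice 151, 156 and 157 had 51.6, 58.3 and 56.6 FPKM and lie above all WT mice, and mice 152 and 153 lie near the WT mean.

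In the liver on HFD, none of 34 members passed for genotype (limma), beside 0.197% of 13215 genes, and 6 had an unadjusted p under 0.05 beside 12.6% of all genes. No member's groups were free of overlap, beside 2.62% of all genes. The difference was negative in 30 of 34 members, with a median of -0.13 on the log2 scale (all genes 0.00). *Acot2* (log2 difference -0.62, limma adjusted p = 0.333), *Pex11a* (-0.46), *Pdk4* (-0.37, 0.508) and *Ehhadh* (-0.21, 0.346) were among the more negative values. *Fgf21* (log2 difference -0.56), *Acot1* (-0.27), *Cpt1a* (-0.13), *Bdh1* (-0.08) and *Ppara* (-0.03) did not pass. Here too the mice differed. Mice 157, 151 and 156 lay below every WT HFD liver in 28, 22 and 14 of 34 members, and mice 152 and 153 in 11 and 1. The same count over all genes is not given here, so these counts do not set the members apart. The summed mature adipocyte markers were 22.9 to 141 FPKM (median 40.4) in *Mlkl*Adi-KO HFD livers and 109 to 177 FPKM (median 114) in WT HFD livers, and the stellate or fibroblast markers 22.7 to 50.7 FPKM (median 25.6) and 37.5 to 52.7 FPKM (median 47.2). *Cidec* was at 13.8, 16.4 and 6.55 FPKM in mice 151, 156 and 157 and at 63.3 and 78.0 FPKM in mice 152 and 153, against 59.1 to 96.0 FPKM in WT HFD livers. The part of these markers was not tested.

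On NCD, no member passed for genotype in either tissue by limma, edgeR or DESeq2, and none had an unadjusted p under 0.05 in limma, beside 4.35% of all genes in liver and 3.75% in visWAT. In DESeq2 on recovered reads 1 liver and 2 visWAT members did, beside 4.65% and 4.73%. Beside these stand 0.00758% of 13193 genes in liver and 0% of 14063 in visWAT called in limma. Leaving out mice 182 and 183 also gave 0 members in visWAT. The visWAT values depended on the scale: on FPKM 25 of 31 members were lower in *Mlkl*Adi-KO with a median of -0.14 (log2), while on TPM 28 of 31 were higher with a median of 0.23 beside 0.35 for all genes. The TPM values take in mouse 183, whose summed FPKM was 564718 against 241025 to 309820 in the other NCD visWAT libraries. *Cpt1a* had a log2 difference of 0.18 in visWAT (95% interval -0.06 to 0.42) and -0.01 in liver.

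Whether the genotype changed the response to HFD was tested as an interaction. No member passed in limma, edgeR or DESeq2 in either tissue, beside 0.0151% of 13248 genes in liver and 0% of 14136 in visWAT. In limma 0 members in liver and 3 in visWAT had an unadjusted p under 0.05, beside 6.12% and 13.2% of all genes. In visWAT edgeR gave 7 members beside 14.4% of all genes, and DESeq2 9 beside 15.5%. In visWAT, 29 of 32 members had a positive interaction with a median of 0.31, but on the TPM scale 25 were negative with a median of -0.13 beside -0.45 for all genes, and without mouse 182 the median was 0.07. *Cpt1a* had -0.46 in visWAT, with a 95% interval of -0.82 to -0.09 (log2, limma adjusted p = 0.346), and *Eci1* 0.63 (0.07 to 1.19, adjusted p = 0.357). In liver *Cpt1a* had -0.12, *Pdk4* 0.13 and *Ehhadh* 0.02, the last with a 95% interval of -0.56 to 0.59.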

How the data were processed

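RNA of visWAT and liver was sequenced in 18 mice. Groups and mouse numbers came from the labels. Members and gene lists were chosen with earlier results of these data known. The study's methods state selection of polyadenylated RNA, mapping to mm39 (GRCm39) with HISAT2 and, per the labels, counting with featureCounts 1.5.0-p3. Strandedness and annotation release are not given in the sources used here. The authors deposited FPKM for 56748 genes and, in tables for their comparisons, raw read counts for the genes listed. Their log2 fold changes, p-values and pathway tables, and 72 further columns of values per sample, were not used. Whole reads were recovered from the FPKM (100% of values within 0.01 reads).

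Tests were limma 3.58.1 (trend, R 4.3.3) on log2(FPKM + 1), with only the libraries compared, genes whose FPKM averaged 0.5 or more, and Benjamini-Hochberg adjustment over all of them (threshold 0.05). Since 1 is added, fold changes of low genes are understated. Alternatives were TPM, a pseudocount of 0.1, a filter of 1 or none, edgeR 4.0.16 and DESeq2 1.42.0 on recovered reads, all 4 groups in 1 fit, a mouse block, and leaving out each mouse. Leaving out mice 182 and 183 together was added after the data were seen. The main limma, edgeR and DESeq2 fits were tested on simulated reads for each type of comparison, and the other settings were not. Per-mouse values are given for the first called members of each step by adjusted p (at most 8 in a comparison), for members without overlap between genotypes, and for *Ppara*, *Cpt1a*, *Acot1*, *Ehhadh*, *Bdh1*, *Fgf21* and *Pdk4*, and of other pathway genes those among the 6 with the lowest adjusted p are named. Some genes are not reported here. Same-numbered visWAT and liver libraries came from 1 mouse. Their deviations from the group means correlated at -0.0659 to 0.237, above 0.1 in 3 of 18 mice. No pair of replicate libraries agreed within sampling noise.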

Additional observations from a re-analysis of the deposited data

Results flagged for a closer look

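The diet effect differed between WT visWAT and WT liver (visWAT minus liver, log2) in 10 of 34 members by the test of that difference. Over all 14746 genes tested, the share that passed was 40%. The values were 2.03 for *Pdk4*, 1.48 for *Fgf21*, 1.25 for *Ehhadh* and 0.36 for *Cpt1a*, and -2.14 for *Acot4*, -1.87 for *Pex11a*, -1.84 for *Acot3*, -1.12 for *Ppara*, -1.11 for *Hadh* and -0.85 for *Eci1*. *Acot3* lay below the level filter within visWAT, so its value rests on liver. The call of *Fgf21* held in 3 of 9 fits without 1 mouse and that of *Cpt1a* in 4 of 9.

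A sample far from the rest of its group was found in 16 of 258 pairs of member and group, where chance gives about 1 in 20. Mouse 182 accounted for 6 of them. In the liver it had 71.9 FPKM of *Fgf21* and 22.5 FPKM of *Abcd2*, above its group, and 112 FPKM of *Acsl1*, 115 FPKM of *Acads* and 189 FPKM of *Hsd17b4*, below it. In visWAT it had 23.6 FPKM of *Abcd3*.

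The other 3 liver flags were *Bdh1* in *Mlkl*Adi-KO NCD mouse 166 (87.9 FPKM), *Abcd3* in WT HFD mouse 164 (148 FPKM) and *Slc25a20* in *Mlkl*Adi-KO HFD mouse 153 (45.9 FPKM). In visWAT of *Mlkl*Adi-KO NCD mice they were *Acsl1* (79.3 FPKM), *Decr1* (36 FPKM) and *Acot4* (1.42 FPKM) in mouse 179, *Acadl* in mouse 199 (102 FPKM) and *Pex11a* in mouse 166 (20.6 FPKM). In WT HFD visWAT they were *Slc25a20* in mouse 164 (11 FPKM) and *Acaa1a* in mouse 154 (30.7 FPKM).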

How the results depend on the processing

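For members that passed in a comparison, and the 4 without overlap between genotypes in visWAT on HFD, 1267 values under alternatives kept direction and side of the threshold, 124 lost the call, 2 gained it and 0 turned direction. For all other members tested, direction turned in 86 of 303 values on the TPM scale and in 298 of 5137 under the other alternatives, and 101 of these 5440 values passed the threshold. Counts of members called, given without the share of all genes called in the same fits, moved by over 1.5 times as follows. In WT visWAT the diet count of 10 became 4 on the TPM scale and 21 without mice 182 and 183. In *Mlkl*Adi-KO visWAT it went from 19 to 9 with all 4 groups in 1 fit. The visWAT genotype count on HFD went from 0 to 2 in DESeq2. The tissue count of 28 became 18 on the TPM scale, and the tissue-by-diet count of 10 became 16 without mice 182 and 183. The cause was not tested. Leaving out 1 mouse gave 10 to 15 calls (liver WT diet), 8 to 11 (liver *Mlkl*Adi-KO diet), 8 to 16 (visWAT WT diet), 15 to 20 (visWAT *Mlkl*Adi-KO diet), 23 to 33 (tissue), 8 to 17 (tissue by diet) and 0 in the genotype and interaction comparisons. With the mouse as replicate block, 27 members passed between tissues (*Cpt2* lost its call, adjusted p = 0.0548) and 11 for tissue by diet. The other comparisons hold each mouse once, so no block applies. In visWAT, *Fgf21* rested on 3 to 32 reads a library in WT mice, so its size is imprecise. Protein features of the members were not analysed here.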
